A study of Saccharomyces cerevisiae with 8 samples.

Results

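Nucleotides G651 to C1000 of 25S rRNA are about the first part of domain II of the large ribosomal subunit of the yeast *Saccharomyces cerevisiae*. They were chosen by position alone, and they comprise 350 of the 5475 nucleotides for which mutation rates were deposited. The stretch holds 94 adenosines, 66 cytidines, 107 guanosines and 83 uridines. It corresponds to chrXII:454182-454531 on the minus strand of assembly R64, inside the rRNA gene RDN25-1. The rDNA is repeated, so these coordinates stand for all copies. The deposited table names no domain, and the domain label was not checked here against a structure.

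The study probed purified 80S ribosomes with dimethyl sulfate (DMS) to find where drugs bind, and it has 8 libraries, 1 per condition. A DMS-free library was the background. Of the 7 libraries treated with 90 mM DMS for 8 min, 1 had no addition and 1 had dimethyl sulfoxide (DMSO), a solvent. The remaining 5 had 1 of 2 drugs. Agelastatin A (AglA), an antitumor natural product, was given at 0.5 or 1.0 mM, and cycloheximide (CHX), which blocks translation elongation, at 10, 50 or 1000 µM. The labels give neither the yeast strain nor the number of ribosome preparations, and they do not name the solvent of AglA or CHX. Drugs met the ribosomes in vitro, so the rates describe purified particles and not growing cells.

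DMS adds a methyl group to the pairing face of adenosine (N1) or cytidine (N3) where that face is free. The reverse transcriptase reads through a methylated base and leaves a mismatch, so the mutation rate is the percentage of reads with a mismatch at a nucleotide. Bases in helices, in tertiary contacts or under a protein or drug are usually protected, and bases in open loops are usually reactive. Domain II is one of the large domains of 25S rRNA and is folded together with ribosomal proteins on the body of the subunit. Many of its bases and riboses are modified by the cell, guided by small nucleolar RNAs.

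The sequences below show where the bases with high rates under DMS lay. The capitals at A876 and C969 mark rates that were nearly as high without DMS, as given below. They are written 5′ to 3′ with T for U as in the deposited table, and capitals mark each adenosine or cytidine that averaged 0.5% or more in the 7 DMS libraries. The pieces hold the most reactive bases, the hairpin loops discussed below and the surroundings of C959. The last piece holds a predicted loop with no capital, for contrast.

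G684 to A720: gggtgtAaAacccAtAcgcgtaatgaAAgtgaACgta

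G728 to C745: gcctcgCAAgaggtgcAc

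A755 to A786: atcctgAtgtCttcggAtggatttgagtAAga

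U821 to G835: tgcctgaatAgggtg

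G838 to U855: gccAgaggAAActctggt

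G870 to G887: gttctgACgtgcAAatcg

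G950 to U985: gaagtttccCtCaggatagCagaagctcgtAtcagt

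G924 to C944: gaaccatctagtagctggttc

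Most adenosines and cytidines of the stretch were weakly reactive, and a minority carried nearly all of the signal. The 94 adenosines had a median of 0.0368% in the DMS-free library and of 0.166% in the no-addition library. For the 66 cytidines the medians were 0.0586% and 0.0801%. In the no-addition library, 36 of the 160 adenosines and cytidines were at least 10 times their rate without DMS, which is 22.5%, and 22.6% of all adenosines and cytidines in the table were. The share in the stretch was thus near that of the whole table. Adenosines made up 30 of the 36 and cytidines 6.

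An average of 0.5% or more in the 7 DMS libraries was reached by 33 members, 26 adenosines and 7 cytidines. These are the nucleotides that were compared between libraries, and they are called tested below. They are 27.7% of the adenosines and 10.6% of the cytidines of the stretch, against 23.6% and 11.6% in the rest of 25S rRNA. The stretch before it, G1 to C650, had 22.7% and 9.57%, and the one after it, G1001 to U1445, had 24% and 12.2%. The threshold fell between A895, with a mean of 0.467%, and A837, with 0.522%. The mean rates of the 33 ran from 0.522% to 49.5% with a median of 1.81%, and 12 of them were under 1%.

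Reactivity was led by A692 and A761. A692 was at 0.255% in the DMS-free library, at 52.2% in the no-addition library and at 51.7% in the DMSO library. It was at 51.3% and 52.6% with the lower and higher AglA dose, and at 43.2%, 48.1% and 47.6% with the rising CHX doses. A761 was at 0.194% in the DMS-free library, at 31.8% and 30.8% without drug, at 29.4% and 28.6% with AglA, and at 26.7%, 28.8% and 27.3% with CHX. Here and below, values without drug are given in the order no addition, DMSO, and values with a drug in the order of its doses. In mean rate they were at ranks 6 and 9 among the 2529 adenosines and cytidines of the table. Every DMS library had more than 26% at both, while A691, next to A692, had a mean of 0.0683%.

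The next 5 were A848, C877, C717, C959 and A784, with means of 10.0%, 8.74%, 8.35%, 7.20% and 6.91%. The cytidines among them had 0.0760% to 0.118% without DMS. C717 had 9.12% and 9.19% without drug, 7.54% and 8.45% with AglA, and 8.23%, 8.32% and 7.61% with CHX. C877 had 9.11% and 9.58% without drug, 9.57% and 9.98% with AglA, and 6.47%, 8.21% and 8.24% with CHX. A784 had 8.03% and 7.42% without drug, 6.85% and 6.84% with AglA, and 6.23%, 6.63% and 6.34% with CHX. The CHX values of C877 and A784 lay below all 4 other DMS libraries, but the medians of all tested nucleotides were also lower with CHX. After centring on those medians, as described further below, limma gave CHX differences of -0.05 for C877 and -0.02 for A784. Their adjusted p-values in limma were 0.724 and 0.827.

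The other named leaders had lower means. They were C734 (4.17%), A980 (3.90%), A736 (2.95%), A744 (2.89%), C765 (2.57%), C969 (2.32%), A735 (2.21%), A711 (1.93%), A783 (1.91%), A771 (1.81%), A883 (1.41%), A830 (1.40%) and A846 (1.35%). All of these had less than 0.1% without DMS except C969, which had 2.10%.

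**Figure D1:**
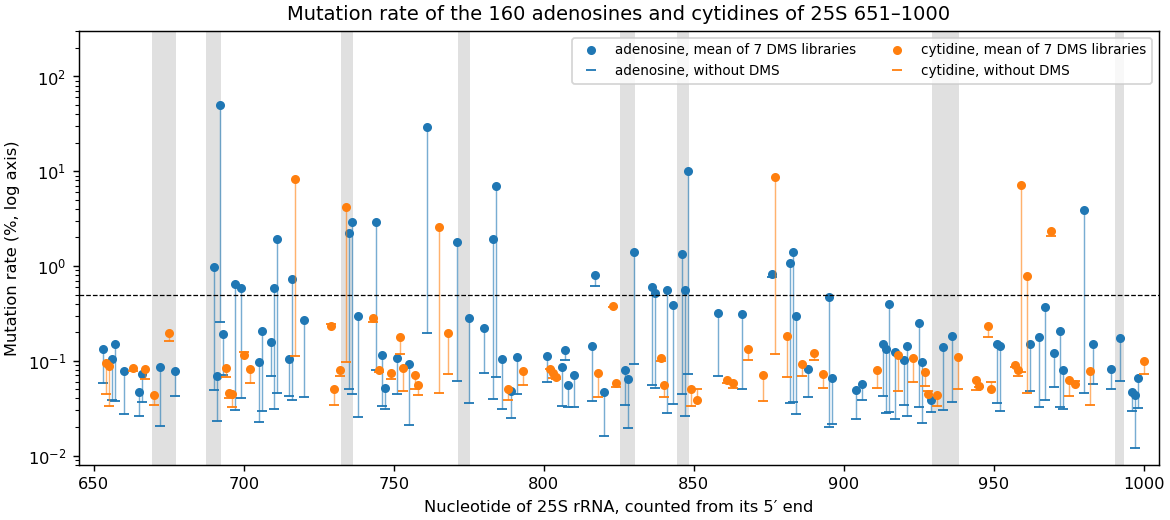
Mutation rate (%, log axis) of the 160 adenosines and cytidines against position in 25S rRNA. Points are means over the 7 DMS libraries, dashes the library without DMS, grey bands the loops of 8 hairpins found in the sequence, and the dashed line the 0.5% threshold. A692 and A761 stand highest, and no point between A883 and C959 reaches the threshold.

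The tested bases were unevenly spread. In consecutive windows of 50 nucleotides the share of adenosines and cytidines that were tested was 16.7%, 34.8%, 26.3%, 29.6%, 21.1%, 0% and 16.7% from G651 onward. The longest piece without a tested base lay between A883 and C959. It holds 75 nucleotides, 35 of them adenosine or cytidine, and the highest mean among those 35 was the 0.467% of A895. A second gap of 32 nucleotides lay between A784 and A817, where the highest mean of an adenosine or cytidine was 0.142%. Runs of at least 3 tested bases, each within 3 nucleotides of the next, occurred at C734 to A736 and at A846 to A848.

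Both runs lie in hairpin loops of the kind known as GNRA tetraloops. A GNRA tetraloop is a common 4-base RNA turn in which the first and last bases form a sheared pair that leaves the pairing edge of the last adenosine unpaired. A search for stems of at least 5 consecutive A-U, G-C or G-U pairs around a loop of 3 to 9 bases, a rule chosen after the data were seen, found 8 hairpins in the stretch. Complementary letters do not show that a helix forms in the ribosome. Of the 22 adenosines and cytidines in these 8 loops 9 were tested (40.9%), and of the 34 in the stems 3 were tested (8.82%). The other 21 tested bases lay outside these hairpins. With stems of at least 6 pairs the search found 4 hairpins, with 3 of 9 loop bases tested (33.3%), all in 1 hairpin, and 2 of 20 stem bases (10%). In the rest of 25S rRNA the same search gave 26.2% of 206 in loops and 13.5% of 296 in stems, and in 18S rRNA 31.7% of 123 and 21.3% of 197.

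The hairpins differed from each other. The loop G733 to A736, closed by 5 pairs, had 4.17% at C734, 2.21% at A735 and 2.95% at A736. The loop G845 to A848, closed by 7 pairs, had 1.35% at A846, 0.555% at A847 and 10.0% at A848. In the 5-base loop G688 to A692, A690 had 0.983%, A691 0.0683% and A692 49.5%. The last base before the stem was thus the most reactive one, and A690 was also tested. In the loop G826 to A830, A830 had 1.40% and was the 1 tested base, again the last of the loop. The 9-base loop U930 to C938, closed by 6 pairs, had no tested base, and its highest mean was 0.183% at A936.

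The 3 tested bases inside stems were A697, A771 and A841. A697 and A771 are in pairs at an end of their stems, and A841 is in an inner A-U pair of the hairpin G838 to U855, with a mean of 0.552%. A search for the loop letters G, any base, A or G, then A, closed by 4 Watson-Crick pairs, over all 4 rRNAs of the table found 4 loops, 2 of them in this stretch. The others, at G1404 to A1407 and G2221 to A2224 of 25S rRNA, had means under 0.3% at every base. Loops with these letters thus ranged from weakly to strongly reactive.

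Nucleotides listed as ribose-methylated had a higher median rate without DMS than unlisted ones. Whether the modifications give rise to these mismatches was not tested. A list of 13 modified nucleotides of the stretch, written from memory with earlier results of these data known, had the same base as the table at 13 of 13, which does not check the positions themselves. The 8 ribose-methylated (2′-O-methyl) nucleotides had 0.0771% to 0.765% without DMS with a median of 0.215%, against 0.0477% for the unlisted nucleotides. Each of the 8 was above the median of the stretch. A876 and A817 had 0.765% and 0.608%, at ranks 2 and 3 of 350. The other listed ones were G908 (0.266%), G805 (0.230%), U898 (0.199%), G867 (0.159%), A807 (0.102%) and C663 (0.0771%). Their ranks were 6, 11, 12, 20, 31 and 62. Unlisted nucleotides held ranks 4, 5 and 7 to 10. They were C823 (0.368%), G880 (0.267%), G742 (0.261%), C743 (0.258%), A692 (0.255%) and C729 (0.247%).

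The 5 pseudouridines U776, U960, U966, U986 and U990 had 0.0396% to 0.103% without DMS, with a median of 0.0562%, and 3 of them were above the median of the stretch. Pseudouridine is an isomer of uridine that still pairs with adenine. The highest rate without DMS belonged to C969, which is on neither list. C969 had 2.10% in the DMS-free library, and with DMS 2.19% and 2.41% without drug, 2.21% and 2.27% with AglA, and 2.42%, 2.37% and 2.38% with CHX.

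**Figure D2:**
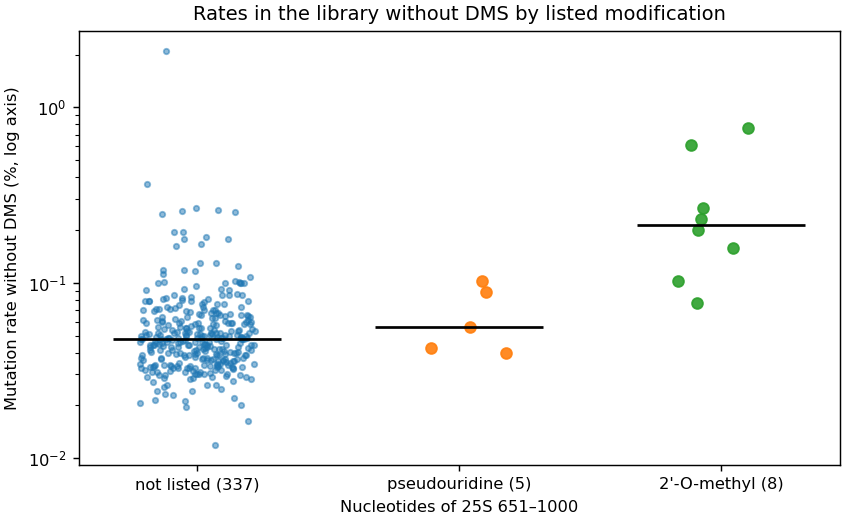
Mutation rate without DMS (%, log axis) of the 350 nucleotides, grouped by a list of modified nucleotides written from memory. Points are nucleotides, with random sideways spread, and bars are medians. The 2′-O-methyl group has a median of 0.215%, the pseudouridines 0.0562% and the others 0.0477%, and the single high point among the others is C969 at 2.10%.

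A817, A876 and C969 passed the 0.5% filter through this background. Their ratios of the no-addition library to the library without DMS were 1.24, 1.15 and 1.04, while the other 30 tested members had ratios of at least 11.6. The rates of these 3 bases were thus close to their rates without DMS.

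The 7 DMS libraries gave nearly the same profile over the 33 tested members. Pearson's r of the log2 rates ran from 0.981 to 0.999 over the 21 pairs of libraries, across nucleotides that share their sequence and libraries that may share a ribosome preparation. The median of the 33 was 0.0502% in the DMS-free library, 1.92% and 2.16% without drug, 2.01% and 1.98% with AglA, and 1.49%, 1.52% and 1.48% with CHX. Over all 514 tested nucleotides of the table it was 1.74% and 1.66% without drug, 1.58% and 1.60% with AglA, and 1.31%, 1.52% and 1.44% with CHX. The 10 µM CHX library was the lowest of the 7 at 20 of the 33 members (60.6%), and at 66.9% of all tested nucleotides. Comparisons below therefore use log2(rate + 0.001), with the rate as a fraction, minus each library's median over the 514 nucleotides. The added 0.001, or 0.1 percentage points, understates changes of low rates.

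With 1 library per condition, no difference between 2 libraries has a replicate check. A member was called in a drug library when it differed at least 2-fold, in the same direction, from each of the libraries without drug, no addition and DMSO. None of the 33 members was called at any dose of AglA or CHX. In each of these libraries 0.195% of the 514 nucleotides were called, which is 1 nucleotide outside this stretch. Between DMSO and no addition 0 members differed 2-fold, against 0.389% of all tested nucleotides.

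The libraries were also fitted with limma in 3 classes, no drug (2 libraries), AglA (2) and CHX (3), over all 514 nucleotides, with Benjamini-Hochberg adjustment. Doses then stand in for replicates, so these p-values set a class difference against the spread among single libraries, which may be technical. That spread also holds the difference between DMSO and no addition. With AglA against no drug limma called 0 of the 33 members, with 0.195% called in the table. An unadjusted p under 0.05 was held by 7 of the 33 members and by 59 of the 514 nucleotides. With CHX against no drug limma called 1 member, C959, with 0.778% called in the table. Here 10 of the 33 members and 87 of the 514 nucleotides had an unadjusted p under 0.05. The median log2 difference of the 33 members was 0.04 with AglA and 0.03 with CHX, and over all tested nucleotides it was 0.02 in both. Leaving out the DMSO or the no-addition library leaves 1 library without drug. Without the DMSO library A847 was at -1.09 with AglA, against -0.66 in the main fit. Without the no-addition library A847 was at 0.92 with CHX, against 0.48 in the main fit. Without centring limma called 17 members with CHX, with the lower CHX library medians left in the differences. The share called over all 514 nucleotides in that fit is not given here, so the 17 cannot be set against it.

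**Figure D3:**
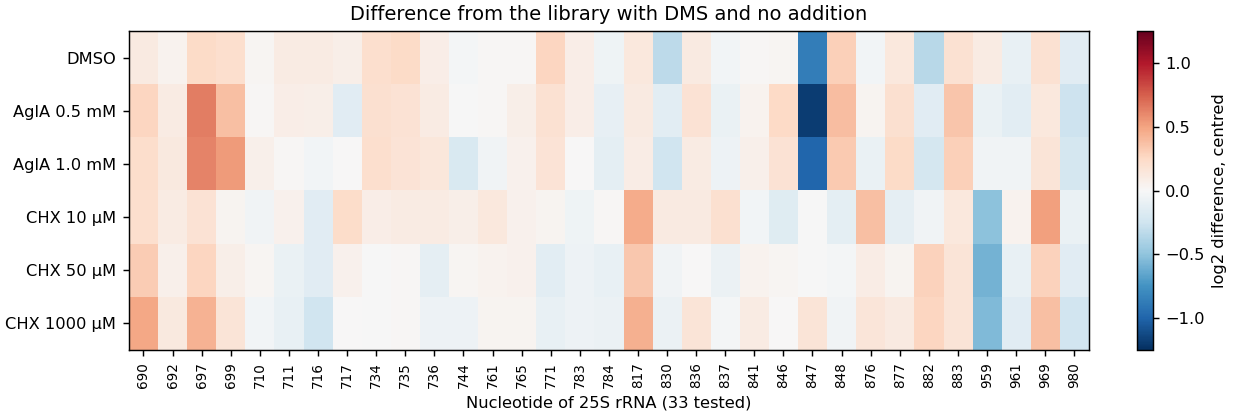
Centred log2 difference of 6 libraries from the library with DMS and no addition, for the 33 tested members in order of position. Blue is lower and red higher. The darkest blue cells are nucleotide A847 with DMSO and both AglA doses, and the other blue column is nucleotide C959 with the 3 CHX doses.

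With CHX 1 cytidine of the stretch, C959, was less reactive by more than the spread among libraries. Its rate was 0.0760% in the DMS-free library, 9.21% in the no-addition library and 9.48% in the DMSO library. It was 7.94% and 8.27% with the lower and higher AglA dose, and 4.91%, 5.36% and 5.20% with the rising CHX doses. The 3 CHX libraries lay well below all other DMS libraries and close to each other.

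On the centred log2 scale C959 was at 2.34 and 2.44 without drug, at 2.25 and 2.30 with AglA, and at 1.82, 1.75 and 1.79 with CHX. In limma it fell by 0.60 with CHX (standard error 0.056, adjusted p = 0.000567, lower in 3 of 3 CHX libraries). It was called under all 14 alternative settings, at -0.85 to -0.55 with adjusted p from 4.77e-06 to 0.00820. The rate at 10 µM was already as low as at 1000 µM, so no further decrease over this range of doses was seen in these single libraries. With AglA the difference from no drug was -0.12 (adjusted p = 0.446).

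C959 lies next to U960, a listed pseudouridine site, and C961 is the nearest other tested base. C961 had 0.926% and 0.821% without drug, 0.761% and 0.823% with AglA, and 0.714%, 0.746% and 0.676% with CHX. The rate of C959 was 9.95 and 11.6 times that of C961 without drug, 10.4 and 10.1 times with AglA, and 6.87, 7.19 and 7.69 times with CHX. This ratio needs no centring, and its values with CHX were below those of the other libraries. U960 itself stayed between 0.0992% and 0.127% in all DMS libraries. C959 is at position 454223 of chromosome XII.

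**Figure D4:**
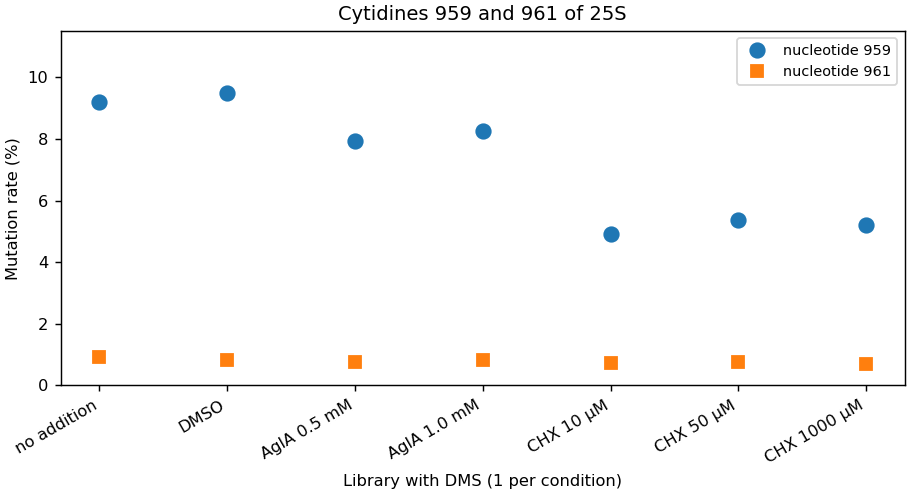
Mutation rate (%) of cytidines C959 and C961 in the 7 libraries with DMS, 1 point per library. C959 is between 7.94% and 9.48% in the 4 libraries without CHX and between 4.91% and 5.36% in the 3 with CHX, while C961 stays under 1% in all 7.

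In the tetraloop G845 to A848 the adenosines moved apart from each other between libraries. A847, the third base of the loop, had 0.821% in the no-addition library but 0.385% in the DMSO library and 0.270% and 0.331% with AglA. With CHX it had 0.609%, 0.707% and 0.760%, against 0.0260% in the DMS-free library. The DMSO and AglA libraries were low, and the no-addition and CHX libraries high, with no overlap.

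A848, the last base of the loop, was higher with DMSO and AglA than in the other DMS libraries. On the centred log2 scale against no addition it was at 0.30 with DMSO and at 0.39 and 0.32 with AglA. With CHX it was at -0.13, -0.02 and -0.04 on that scale. The rates of A848 were 10.1% and 12.0% without drug, 12.2% and 11.8% with AglA, and 7.13%, 8.77% and 8.21% with CHX. The rate of A848 was 12.3 times that of A847 with no addition and 11.7, 12.4 and 10.8 times with CHX. With DMSO it was 31.1 times, and with AglA 45.2 and 35.6 times. A846 had 1.45% and 1.41% without drug, 1.58% and 1.53% with AglA, and 0.976%, 1.29% and 1.20% with CHX.

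The difference of A847 with AglA was thus small against DMSO and large against no addition. On the centred log2 scale A847 with AglA was at -0.32 and -0.12 against DMSO, and at -1.19 and -0.99 against no addition. The DMSO library was at -0.87 against no addition. In limma, which pools both libraries without drug, A847 was at -0.66 with AglA (adjusted p = 0.403) and at 0.48 with CHX (adjusted p = 0.259). The labels do not say which solvent AglA was given in, and the part of a solvent in its values was not tested.

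**Figure D5:**
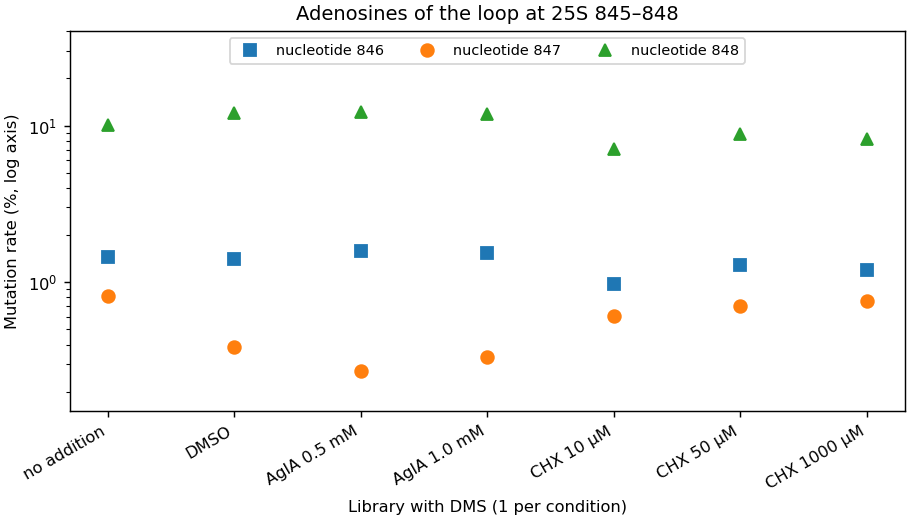
Mutation rate (%, log axis) of the 3 adenosines in the loop G845 to A848, in the 7 libraries with DMS, 1 point per library. A847 is between 0.270% and 0.385% with DMSO and AglA and between 0.609% and 0.821% in the other 4 libraries, while A848 is highest with DMSO and AglA.

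Between the drugs themselves limma called 6 of the 33 members (18.2%), and 11.9% of all tested nucleotides. Lower with AglA than with CHX were A847 (log2 difference -1.14, standard error 0.20, adjusted p = 0.0171) and A817 (-0.31, adjusted p = 0.0290). Higher with AglA were C959 (0.49, adjusted p = 0.00122), A848 (0.42, adjusted p = 0.0216), A699 (0.37, adjusted p = 0.0304) and A846 (0.25, adjusted p = 0.0489). Of these 6, C959 alone was still called in each of the 7 fits that left out 1 library. It was the 1 member called without 0.5 mM AglA, without 1.0 mM AglA or without 10 µM CHX, and without 50 µM CHX it was called together with A847. Leaving out the DMSO or the no-addition library cannot change a difference between AglA and CHX. The difference of C959 was 0.49 in those fits for that reason. The call of A817, a base whose signal does not depend on DMS, was lost without centring (-0.15, adjusted p = 0.135) and without the 0.5% filter (-0.21, adjusted p = 0.227).

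A697, at the outer end of the stem that carries A692, and A699, just beyond it, had the highest values with AglA. A697 had 0.546% and 0.631% without drug, 0.820% and 0.817% with AglA, and 0.465%, 0.587% and 0.630% with CHX. A699 had 0.554% and 0.626% without drug, 0.679% and 0.777% with AglA, and 0.415%, 0.504% and 0.510% with CHX. Both AglA libraries were above all 5 others at both bases. Neither difference from no drug passed in limma (0.51, adjusted p = 0.105, and 0.35, adjusted p = 0.362).

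Other members with sizable differences did not pass. With AglA, A980 was at -0.17 (adjusted p = 0.403), with 4.84% and 4.20% without drug and 3.68% and 3.82% with AglA. A883 was at 0.23 with AglA (limma adjusted p = 0.403), with 1.37% and 1.51% without drug and 1.62% and 1.57% with AglA. A848 and A846 were at 0.21 and 0.20 with AglA (limma adjusted p = 0.403 for each). At A883 and A846 both AglA libraries were above all other DMS libraries, as at A697 and A699. With CHX, A716 was at -0.23 (adjusted p = 0.158), with 0.851% and 0.879% without drug and 0.562%, 0.662% and 0.570% with CHX. A882 was at 0.35 with CHX (adjusted p = 0.202), but its no-addition rate of 1.22% lay within the 0.891% to 1.32% of the CHX libraries, and its DMSO rate was 0.899%. A690 was at 0.28 (adjusted p = 0.146).

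The bases whose signal does not depend on DMS had positive centred differences with CHX. A817, C969 and A876 were at 0.35, 0.30 and 0.22 (adjusted p = 0.0830, 0.122 and 0.250). Without centring the same differences were 0.10, 0.05 and -0.02. C959 was at -0.85 without centring, and the leader A692 at -0.17 in place of 0.07. For A817, C969, A876 and A692 centring on medians of DMS-dependent nucleotides, which were lower with CHX, sets the sign or most of the size. C959 was lower with CHX on both scales.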

How the data were processed

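Mutation rates were deposited as a fraction per nucleotide, 1 column for each of 8 libraries, and are printed as percentages. Per the labels' protocols, ribosomes were incubated with drug and treated with DMS, and the fragmented rRNA was copied with TGIRT-III. Full-length cDNA was circularised and amplified by PCR, and no step that removes PCR copies is recorded. Tools listed in the submitters' processing notes are cutadapt and Bowtie2, with build sacCer3. Read filters and depth limits are not given in the sources at hand. The table holds no read depth, so no counting interval is given and the precision of low rates is unknown.

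Libraries were assigned by title. Adenosines and cytidines with a mean of at least 0.5% over the 7 DMS libraries were tested, 514 in the table. Values were log2(rate + 0.001), centred on each library's median. A nucleotide was called at a 2-fold difference from both libraries without drug. limma 3.58.1 (lmFit, eBayes with trend, R 4.3.3) had 4 residual degrees of freedom and a threshold of 0.05 after Benjamini-Hochberg adjustment. In simulated data it called, for each drug, 18 of 20 nucleotides lowered by 0.5 on the log2 scale and 2 of 454 unchanged ones. The simulated noise was independent for each library, so it cannot show how calls fare where libraries share a preparation. Other steps used Python 3.11.15, numpy 2.4.6, pandas 2.3.3 and matplotlib 3.10.9.

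Named nucleotides were the 20 highest in mean rate, the listed modifications, every call, the largest differences per comparison, members at the filter's edge, those of at least 0.5% without DMS, and guanosines and uridines of at least 0.5% with DMS. C961, A691, A841, A936, C823, G880, G742, C743 and C729 were chosen after their values were seen. Members and lists were chosen with earlier results of these data known. The strand of RDN25-1 was taken from its locus tag, and its length in R64 equals that of the table's 25S rRNA. Alternatives were stems of at least 6 pairs (chosen after the data were seen), other added constants, filters and fold thresholds, background subtraction, single controls, fits without centring or without the eBayes trend, and each DMS library left out in turn.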

Additional observations from a re-analysis of the deposited data

Results flagged for a closer look

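A few guanosines and uridines, which the comparisons leave out because DMS is not expected to mark their pairing edge under usual conditions, gave signal with DMS above the library without it. Of the 190 guanosines and uridines of the stretch 3 had a mean of at least 0.5% over the 7 DMS libraries (1.58%), against 1.31% of the 2756 elsewhere in the table. G800 had a mean of 1.08%, with 0.0537% in the DMS-free library, 1.05% in both libraries without drug, 1.15% and 1.04% with AglA, and 0.990%, 1.16% and 1.10% with CHX. U762, the neighbour of the reactive A761, had a mean of 0.728%, with 0.0480% without DMS and 0.629% to 0.815% with it. U874 had a mean of 0.533%, with 0.0503% in the DMS-free library, 0.520% and 0.601% without drug, 0.604% and 0.732% with AglA, and 0.403%, 0.393% and 0.476% with CHX. The origin of these 3 signals was not tested.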

How the results depend on the processing

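The number of tested members was 14 with a filter at 2% and 51 at 0.2%. Reactive runs numbered 5 with a gap of 5 nucleotides and 1 with the 2% filter. By the 2-fold rule 1 member was gained in 5 settings, each time A847 or C959. A847 differed between DMSO and no addition with 0.0001 added to the rate or at 1.5-fold, at 0.5 mM AglA against no addition alone, and at 1000 µM CHX against DMSO alone. C959 was called at 50 µM CHX at 1.5-fold. In limma, leaving out 1 library gave 0 to 6 members with AglA, 1 to 6 with CHX, and 1 to 13 between the drugs. Where that left a class with 1 library, the library was assumed to vary like those of the other classes. Without centring 17 members were called with CHX and 16 between the drugs, with the lower CHX library medians left in. The share called over all tested nucleotides in the alternative fits is not given here. With CHX the count was also 2 with 0.01 added, 2 with the 2% filter and 4 with no filter, and C959 was among them each time. The difference of A876 with CHX changed sign without centring (-0.0211). Where no cause is given above, the cause was not tested. Depth is unknown, and members near 0.5% lie only a few times above the added constant.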
